A study of Mus musculus with 11 samples.

Results

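The members described here are the genes of the enzymes that build the sugar chains of mucins and other glycoproteins in the mouse colon. They were chosen by name: every gene whose symbol starts with Fut, St3gal, St6gal, St8sia, Galnt, B3gnt, B3galt, B4galt, C1galt, Gcnt, Gal3st or Chst, leaving out 3 names that mark a pseudogene or an antisense transcript. The rule found 96 of the 54513 genes in the count table. They fall into 5 families by the step they carry out, with 8 fucosyltransferases, 20 sialyltransferases, 27 enzymes that start and branch the O-glycan core, 21 enzymes that extend the chain with N-acetylglucosamine and galactose, and 20 sulfotransferases.

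Colonic epithelial cells were compared in 4 groups. DSS DKO (n = 3) were double knockout mice, without the miR-181a1-b1 cluster and also without miR-181a2-b2, given 2% dextran sulphate sodium (DSS) for 7 days and left to recover for 2 days. DSS WT (n = 3) were wild-type mice given the same, baseline DKO (n = 3) were untreated double knockout mice, and baseline WT (n = 2) were untreated wild-type mice. DSS, a sulphated sugar polymer taken by mouth in this kind of model, damages the gut lining. The cells of all groups were enriched on Percoll, a density medium meant to remove lymphocytes. The labels give no strain, age or sex, state no Cre driver, and call the libraries biological replicates. They do not give the number of mice behind a library, so each p-value covers only the spread among these libraries, which may be technical in part. The DSS libraries held 633 to 906 CPM (counts scaled to a common library size) of Xist, a female-specific RNA, and 0.162 to 0.895 CPM of the Y-linked Ddx3y. The baseline libraries held 6.75 to 14.5 CPM of Xist and 42.6 to 54.9 CPM of Ddx3y. Every comparison of DSS with baseline is therefore also one of female-pattern with male-pattern libraries, and DSS and sex cannot be told apart.

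Library totals were 41631951 to 52761900 counts. The 4 deleted microRNA genes read 0 counts in all 11 libraries, DKO and WT alike, so these polyadenylated RNA libraries do not check the genotype. Mir181a-1hg, the host transcript of the chromosome 1 cluster, read 21, 31 and 25 counts in DSS DKO, 10, 15 and 13 in DSS WT, 19, 16 and 14 in baseline DKO and 8 and 4 in baseline WT. It was read in both genotypes, with the higher counts in DKO, but the difference did not pass edgeR's test over all genes after DSS (1.14 ± 0.44 log2, adjusted p = 0.124) or at baseline (1.70 ± 0.56, adjusted p = 1). The labels do not say which bases of the locus were removed, so it does not check the deletion. Baseline DKO replicate 1 had 23.0% of its counts and replicate 2 had 8.46% in an 18S ribosomal RNA gene, against 0.128% to 1.59% in the others. The 8 defining epithelial markers were all present, with summed levels of 12913 to 13508 CPM in DSS DKO, 13455 to 14196 in DSS WT, 14712 to 16507 in baseline DKO and 12425 to 13684 in baseline WT.

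A mucin O-glycan starts when a polypeptide N-acetylgalactosaminyltransferase of the Galnt family places N-acetylgalactosamine on a serine or threonine. C1galt1, B3gnt6 and Gcnt enzymes such as Gcnt1 and Gcnt3 turn this sugar into core structures. B3gnt, B3galt and B4galt enzymes lengthen them, and fucose, sialic acid and sulfate finish the ends. Gcnt2 branches lactosamine chains instead, and is counted in the core family here by its name. In the colon these chains make up most of the mass of the mucins and are what bacteria, lectins and toxins meet first. B3gnt6 makes the core 3 structure that is typical of the colon, and Fut2 makes the alpha-1,2 fucose end that gut bacteria feed on.

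The deleted microRNAs are shown because the question asked of each gene below is how it stands when they are missing. miR-181a and miR-181b are made from the deleted clusters on chromosomes 1 and 2, while miR-181c and miR-181d come from chromosome 8 and were not deleted. The mature sequences are from RefSeq on GRCm38.p6, 5′ to 3′, with the seed (bases 2 to 8) in capitals. All 4 share it.
mmu-miR-181a-5p: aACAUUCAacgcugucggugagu
mmu-miR-181b-5p: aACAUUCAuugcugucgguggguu
mmu-miR-181c-5p: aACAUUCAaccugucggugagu
mmu-miR-181d-5p: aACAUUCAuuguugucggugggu

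A seed match was looked for on the transcribed strand of 1 annotated 3′ UTR per gene (GENCODE M21), the longest. The 7-base forms searched were TGAATGT, which pairs with the whole seed, and GAATGTA, which ends in an added A. The 8-base form TGAATGTA contains the other forms. Of 95 members with an annotated UTR, 33 (34.7%) held one, against 22.1% of 19427 genes. The members' UTRs were also longer, with a median of 1848 bases against 1050, so the shares are not of like lengths. The longest form was in 5 members (5.26%), against 5.58% of all genes, including B4galt1, B4galt4 and C1galt1. The sites below, on GRCm38, are from these 3 genes and from 4 members that moved with genotype after DSS. One match per gene is printed, except both of the longest form in C1galt1, and B4galt4, C1galt1, Gcnt2, Gcnt4 and Gal3st2c hold more. The match is in capitals. A match is a description of letters, not a measured site.
B4galt1, chr4:40806508-40806537, minus strand: tgtctgatttcTGAATGTAaagaggctttt
B4galt4, chr16:38768648-38768677, plus strand: ccacccgacccTGAATGTAcccagcctctt
C1galt1, chr6:7872477-7872506, plus strand: atcatcaatacTGAATGTAgaacagaatat
C1galt1, chr6:7875013-7875042, plus strand: cttgccctaatTGAATGTAcaacctaaaac
Gcnt2, chr13:40959608-40959636, plus strand: caaacgcctctTGAATGTctatgattccc
Gcnt4, chr13:96949865-96949893, plus strand: gtcatcaaggaGAATGTAagggcaacatg
Fut9, chr4:25609402-25609430, minus strand: actggagctagTGAATGTgtaaataatta
Gal3st2c, chr1:94012768-94012796, plus strand: ataaaatatcaTGAATGTtattttgggaa

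Levels between genes were compared as CPM per kilobase of exon. In each family a few members held most of the signal. B3galt5, which makes the type 1 galactose chain end, stood highest of the chain-extending enzymes at 123 in DSS DKO, 125 in DSS WT, 112 in baseline DKO and 99.3 in baseline WT. St6galnac6, an alpha-2,6 sialyltransferase, led the sialyltransferases at 102, 136, 155 and 130.2 CPM per kilobase in the same 4 groups. In the mean over the 4 groups, the core 2 and core 4 branching enzyme Gcnt3 led the core family at 95.6, 79.2, 71.8 and 66.4, followed by the initiating enzymes Galnt12 and Galnt4, which stood at 94.0 and 85.8 in DSS WT, above Gcnt3 there. Fut2 led the fucosyltransferases at 57.4, 53.1, 56.8 and 47.8, with Fut4, an alpha-1,3 fucosyltransferase, and Fut8, which adds core fucose to N-glycans, next. The sulfotransferases were lower as a family. Their highest member was Chst4, which sulfates N-acetylglucosamine, at 27.8, 29.2, 41.7 and 32.3. Of the 96 members, 64 reached a mean of 1 CPM in at least 1 group, 52 reached 10 CPM and 21 reached 100 CPM. Galntl5 and B3gnt4 read 0 in every library.

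**Figure D1:**
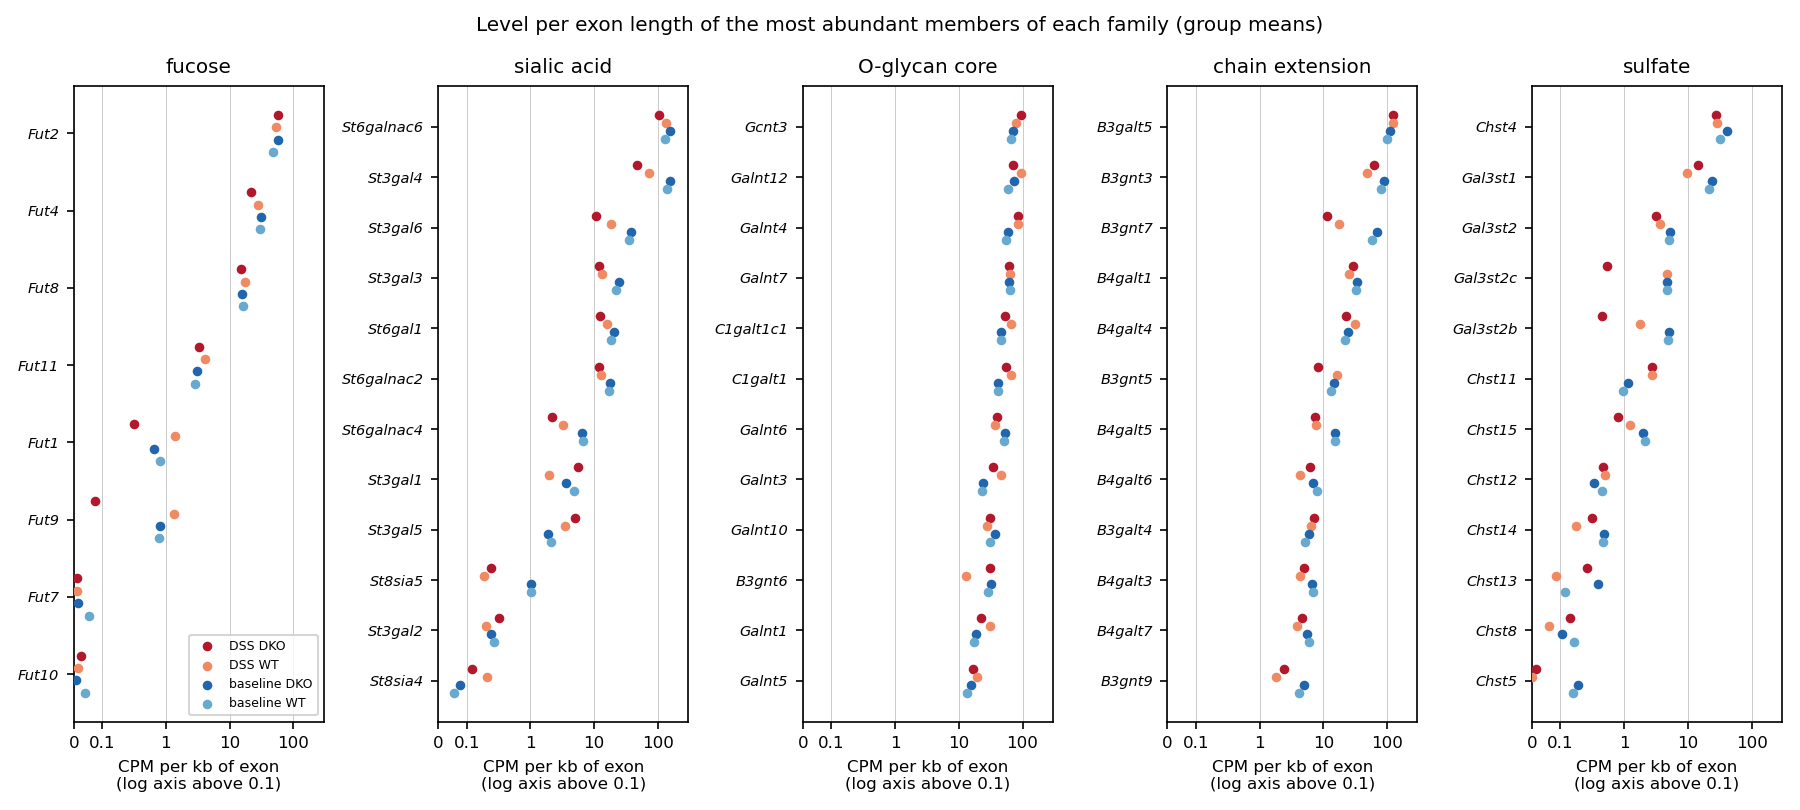
Mean level (CPM per kilobase of exon, log axis above 0.1) of the 12 most abundant members of each family, or all 8 of the fucose family, by group. Most members lie together in the 4 groups, while Fut9, Gal3st2c and Gal3st2b stand far to the left in DSS DKO.

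Counts were tested by edgeR's quasi-likelihood method, with p-values adjusted by Benjamini-Hochberg over the 19267 genes that passed a filter on low counts, and a gene was called at an adjusted p under 0.05. Of the 96 members 77 passed the filter. The 19 that did not had at most 18 counts in any library, St6galnac1 among them, and were not tested. Of the 50-base windows of the St6galnac1 transcript, 34.9% also occur in other genes, mainly Gm11735, so its count is uncertain.

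After DSS, DKO cells had lower transcript levels of Fut9, Fut1, Gal3st2b, Gal3st2c and St3gal6, enzymes that put fucose, sulfate or sialic acid on chain ends. They had higher levels of St3gal1 and of Gcnt2, Gcnt4 and B3gnt6, which branch chains or build the core. In all, 16 of the 77 members tested were called between DSS DKO and DSS WT (20.8%), against 11.2% of all genes. Of these 5 were higher (6.49%, against 5.26% of all genes) and 11 were lower (14.3%, against 5.98%). The median log2 fold change was -0.02 over the members and 0.03 over all genes. By family, 0 fucosyltransferases rose and 2 fell of 7 tested, 1 sialyltransferase rose and 3 fell of 14, 3 core enzymes rose and 1 fell of 22, 1 chain-extending enzyme rose and 1 fell of 18, and 0 sulfotransferases rose and 4 fell of 16. In bulk RNA, fewer cells of a type and less RNA per cell cannot be told apart. Of the 16 calls, 8 were kept in all 17 alternative settings, those of Fut1, Fut9, Gal3st2b, Gal3st2c, Gcnt2, Gcnt4, St3gal1 and St3gal6. The count was 9 without DSS DKO replicate 2 and 10 without DSS WT replicate 2 or replicate 3. Calls over all genes fell too, from 1013 higher and 1152 lower to 344 and 347, 375 and 481, and 378 and 488.

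Fut9 makes the alpha-1,3 fucose of Lewis x and had the largest change of the called members. It had 2.00, 0.729 and 0.317 CPM in DSS DKO, against 20.2, 18.3 and 17.1 CPM in DSS WT, a log2 fold change of -4.16 ± 0.47 (SE) with an adjusted p of 0.000988. At baseline it had 11.6, 10.9 and 11.3 CPM in DKO and 10.5 and 10.8 CPM in WT. The 3 DSS DKO libraries lay far below all others and the DSS WT libraries above all others. Behind the DSS DKO values stood 108, 36 and 14 counts. Fut1, an alpha-1,2 fucosyltransferase that makes the H antigen, had 1.44, 0.749 and 0.454 CPM in DSS DKO and 3.17, 4.01 and 4.24 CPM in DSS WT (-2.09 ± 0.36, adjusted p = 0.00467). The groups did not overlap, and its baseline values of 1.49, 1.62 and 2.31 CPM in DKO and 2.24 and 2.30 CPM in WT lay between them. Fut2, the main alpha-1,2 fucosyltransferase of the gut and the most abundant here, did not pass, with 389, 287 and 259.6 CPM in DSS DKO and 286, 281 and 298 CPM in DSS WT. Its log2 fold change had a 95% interval of -0.15 to 0.38. About 5.47% of its 50-base windows also occur in its neighbour Sec1. Fut4 (-0.37 ± 0.13), Fut8 (-0.18 ± 0.11) and Fut11 (-0.31 ± 0.15) also did not pass.

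Among sialyltransferases, St3gal1 was the 1 that rose. It caps the galactose of core 1 with alpha-2,3 sialic acid, and it had 31.0, 42.4 and 40.4 CPM in DSS DKO and 14.1, 13.1 and 13.1 CPM in DSS WT (1.49 ± 0.15, adjusted p = 0.000349). At baseline the values were 26.6, 25.3 and 22.4 CPM in DKO and 29.6 and 35.5 CPM in WT. Levels after DSS were thus above the untreated level in DKO and below it in WT, with no overlap in either genotype. St3gal6, which puts alpha-2,3 sialic acid on lactosamine chains, fell to 68.3, 74.6 and 57.9 CPM in DSS DKO, against 113, 123 and 103 CPM in DSS WT (-0.76 ± 0.12, adjusted p = 0.00375). About 26.0% of its exon length overlaps Dcbld2 on the other strand, a gene that averaged 3.35 CPM in DSS DKO cells, against 5.01 in DSS WT cells. The strand setting of the counting is not given in the sources used here, so reads of the pair cannot be told apart. St6gal1, the alpha-2,6 sialyltransferase of N-glycans, had 60.1, 64.7 and 54.1 CPM in DSS DKO and 81.0, 79.8 and 71.6 CPM in DSS WT (-0.38 ± 0.10, adjusted p = 0.0376). St6galnac6 had 564, 458 and 451 CPM in DSS DKO and 724, 626 and 615 CPM in DSS WT (-0.42 ± 0.12, adjusted p = 0.0476). St6gal1 and St6galnac6 lay close to the threshold: leaving out any 1 of 10 libraries ended the call of St6galnac6 (adjusted p 0.0527 to 0.178), and any 1 of 7 that of St6gal1 (0.0502 to 0.131). St3gal4, the other abundant alpha-2,3 enzyme, had 214, 106 and 96.4 CPM in DSS DKO and 218, 224 and 184 CPM in DSS WT and did not pass (-0.58 ± 0.25, adjusted p = 0.159). DSS DKO replicate 1 stood with the DSS WT libraries, and without it the change was -1.04 with an adjusted p of 0.000294.

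In the core family, 2 branching enzymes and the core 3 enzyme rose. Gcnt4, a core 2 N-acetylglucosaminyltransferase, had 31.1, 39.3 and 47.0 CPM in DSS DKO and 17.6, 16.5 and 17.3 CPM in DSS WT (1.19 ± 0.18, adjusted p = 0.00234). Gcnt2, which branches lactosamine chains into the I antigen, had 23.6, 26.0 and 26.0 CPM in DSS DKO and 10.9, 11.8 and 13.5 CPM in DSS WT (1.06 ± 0.18, adjusted p = 0.00445). Both were below all DSS libraries at baseline, Gcnt4 at 13.6, 9.49 and 9.42 CPM in DKO and 10.002 and 10.8 CPM in WT, and Gcnt2 at 9.44, 7.58 and 6.83 CPM in DKO and 5.56 and 8.32 CPM in WT. B3gnt6 had 41.6, 76.3 and 101 CPM in DSS DKO and 36.3, 26.0 and 31.8 CPM in DSS WT (1.22 ± 0.27, adjusted p = 0.0178), with 68.2, 72.8 and 90.3 CPM in baseline DKO and 67.9 and 70.5 CPM in baseline WT. For B3gnt6 it was the DSS WT libraries that lay apart from the other groups, and DSS DKO replicate 1 lay nearest to them. Of the 14 Galnt enzymes tested 1 was called. Galnt1 fell to 122, 111 and 132 CPM in DSS DKO, against 167, 171 and 180.3 CPM in DSS WT (-0.50 ± 0.10, adjusted p = 0.00812). Without DSS DKO replicate 2, Galnt1 had an adjusted p of 0.0502, and B3gnt6 one of 0.0683. B3gnt6 was also lost without DSS WT replicate 2 (0.0759) or replicate 3 (0.0657). Galnt3 (-0.38 ± 0.11), Galnt12 (-0.41 ± 0.14), Galnt4 (-0.02 ± 0.12), Galnt5 (-0.20 ± 0.20), Galnt6 (0.13 ± 0.11) and Galnt7 (-0.03 ± 0.12) did not pass. Neither did the core 1 enzyme C1galt1 (-0.22 ± 0.13), its chaperone C1galt1c1 (-0.32 ± 0.20), Gcnt1 (0.50 ± 0.22) or Gcnt3 (0.27 ± 0.18). The 95% interval of Gcnt3, the most abundant of them per length, was -0.08 to 0.63. Without DSS DKO replicate 1 both Gcnt1 (0.69, adjusted p = 0.0324) and Gcnt3 (0.47, adjusted p = 0.0381) passed.

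Of the chain-extending enzymes, both that were called act mainly on glycolipids. B3gnt5, which starts lacto-series glycolipids, had 66.1, 33.5 and 28.2 CPM in DSS DKO and 76.9, 91.0 and 84.0 CPM in DSS WT (-0.98 ± 0.26, adjusted p = 0.0344). B4galt6, a lactosylceramide synthase, had 44.9, 33.1 and 31.5 CPM in DSS DKO and 27.6, 23.2 and 24.6 CPM in DSS WT (0.54 ± 0.15, adjusted p = 0.0348). At baseline B4galt6 had 40.1, 42.2 and 36.0 CPM in DKO and 44.8 and 49.3 CPM in WT. Leaving out any 1 of 8 libraries ended the call of B3gnt5 (adjusted p 0.0518 to 0.133), and any 1 of 4 that of B4galt6 (0.0698 to 0.132). The abundant mucin chain enzymes did not pass. B3galt5 had a log2 fold change of -0.01 ± 0.11, with an interval of -0.23 to 0.21, B4galt1 of 0.18 ± 0.13, B3gnt3 of 0.34 ± 0.31 and B3gnt7 of -0.62 ± 0.51. B3gnt7, which lengthens sulfated lactosamine chains, had 86.7, 37.8 and 17.2 CPM in DSS DKO and 105, 60.8 and 52.8 CPM in DSS WT. The groups overlapped. Without DSS DKO replicate 1 B3gnt7 passed, at -1.41 (edgeR adjusted p = 0.0360).

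The sulfotransferases gave the other large decreases. Gal3st2, Gal3st2b and Gal3st2c lie in a row on chromosome 1 (93861306 to 94017147 on GRCm38, plus strand) and in mouse encode enzymes of the type that sulfates the third carbon of galactose on mucins. Gal3st2c had 7.73, 4.42 and 3.51 CPM in DSS DKO and 48.3, 44.0 and 42.4 CPM in DSS WT (-3.10 ± 0.46, adjusted p = 0.00421). Gal3st2b had 1.72, 1.54 and 0.499 CPM in DSS DKO and 5.02, 5.65 and 3.93 CPM in DSS WT (-1.94 ± 0.34, adjusted p = 0.0048). In both genes every DSS DKO library was below every DSS WT library. Gal3st2 had 8.77, 9.34 and 10.6 CPM in DSS DKO and 10.8, 12.1 and 10.3 CPM in DSS WT, which overlapped (-0.21 ± 0.15, adjusted p = 0.397). The coding sequences of the 3 genes are 96.9% to 98.4% identical, so their counts are uncertain: 75.0% of the 50-base windows of Gal3st2 occur in Gal3st2b and 78.5% the other way. Of its own windows Gal3st2c shares 9.20% with Gal3st2 and 9.94% with Gal3st2b. It has 9667 bases of exon, against 3063 in Gal3st2 and 2748 in Gal3st2b. In the other direction, 31.7% of the windows of Gal3st2 and 35.8% of those of Gal3st2b occur in Gal3st2c. Whether the fall of Gal3st2b is separate from that of Gal3st2c was not tested. Chst15, which sulfates chondroitin chains, had 5.22, 5.55 and 5.42 CPM in DSS DKO and 8.25, 8.48 and 8.20 CPM in DSS WT (-0.62 ± 0.15, adjusted p = 0.0207). Chst10, which makes the HNK-1 sulfate, was called at under 1 CPM in every group (-2.22 ± 0.49, adjusted p = 0.0153). Without DSS DKO replicate 2 neither passed (0.0566 for Chst10 and 0.0709 for Chst15), and Chst15 was lost without DSS WT replicate 2 (0.0704) or replicate 3 (0.0688) as well. Chst4 (-0.07 ± 0.14) and Gal3st1 (0.57 ± 0.18), which sulfates glycolipids, did not pass.

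The promoters of the 3 Gal3st2 genes are shown because Gal3st2b and Gal3st2c were called and Gal3st2, near-identical in its coding part, was not. Each runs from 250 bases before the RefSeq start to 50 after it on GRCm38.p6, plus strand, 5′ to 3′. Capitals mark every match, on either strand, to 3 motifs, which do not overlap each other here. The STAT motif TTCNNNGAA is held by 8.30% of 32851 promoters of this length, the GTTAAT part of an HNF1 site by 7.10%, and the TATA letters TATAAA by 13.6%. In aligned columns, gaps included, the promoters were 45.0% to 45.6% identical, lower than the coding parts. No unrelated promoters were aligned for scale, and the part of the promoters in these calls was not tested.
Gal3st2, chr1:93861094-93861393: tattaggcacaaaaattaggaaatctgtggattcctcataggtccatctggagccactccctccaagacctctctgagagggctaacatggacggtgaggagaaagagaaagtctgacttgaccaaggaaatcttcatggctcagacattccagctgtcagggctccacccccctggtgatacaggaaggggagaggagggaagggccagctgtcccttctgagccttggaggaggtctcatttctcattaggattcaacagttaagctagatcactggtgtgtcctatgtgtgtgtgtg
Gal3st2b, chr1:93918187-93918486: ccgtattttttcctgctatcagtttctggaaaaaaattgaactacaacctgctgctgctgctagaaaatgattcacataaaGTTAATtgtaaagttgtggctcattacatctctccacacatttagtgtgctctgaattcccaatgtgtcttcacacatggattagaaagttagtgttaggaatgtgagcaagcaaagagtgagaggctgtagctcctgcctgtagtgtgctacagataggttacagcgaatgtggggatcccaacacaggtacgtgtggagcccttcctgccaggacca
Gal3st2c, chr1:93990255-93990554: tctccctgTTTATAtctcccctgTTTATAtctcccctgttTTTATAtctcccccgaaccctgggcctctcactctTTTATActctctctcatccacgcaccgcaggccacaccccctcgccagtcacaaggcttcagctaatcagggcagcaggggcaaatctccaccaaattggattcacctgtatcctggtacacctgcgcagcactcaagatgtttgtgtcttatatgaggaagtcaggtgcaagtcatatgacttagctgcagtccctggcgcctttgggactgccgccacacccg
The 4 matches in Gal3st2c start at -242, -227, -210 and -175 from the RefSeq start and read TTTATA, the other strand of TATAAA. The match in Gal3st2b starts at -169. Gal3st2 has none of the 3 motifs in this window.

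**Figure D2:**
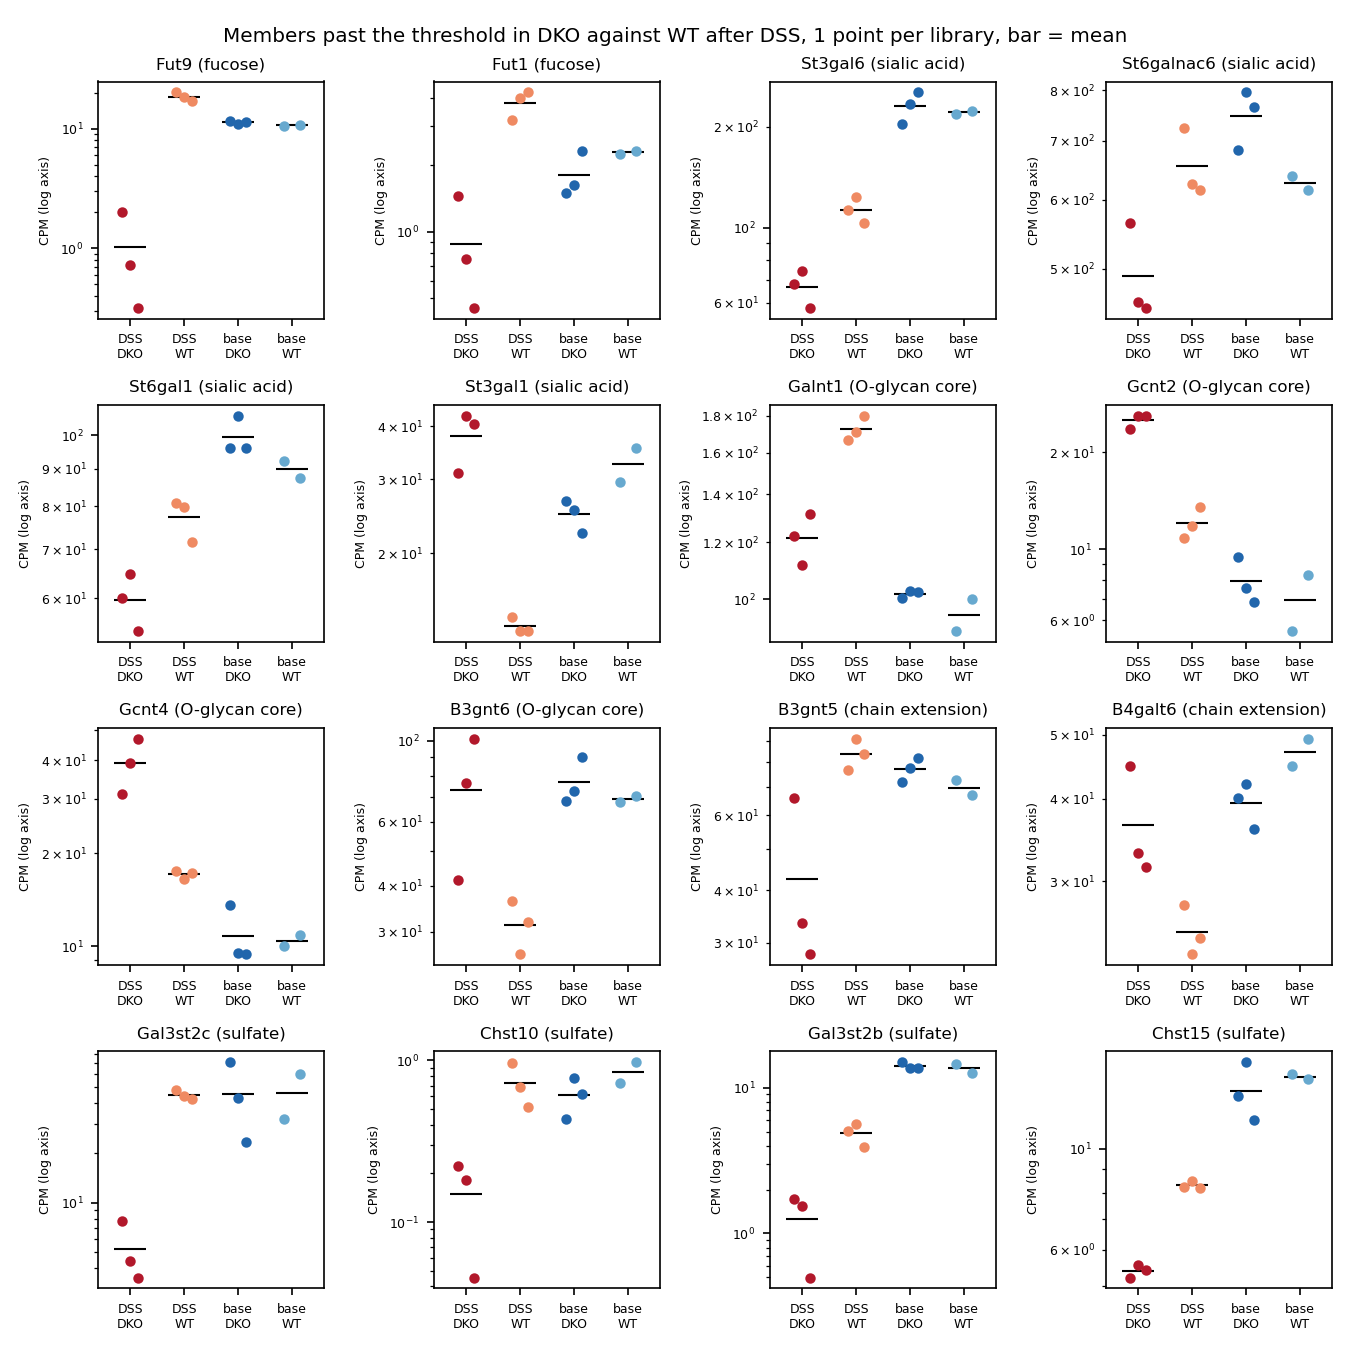
CPM (log axis, scaled per gene) of the 16 members called between DSS DKO and DSS WT, with 1 point per library and a bar at each group's mean. The panels were chosen by their call on these libraries, so the lack of overlap between DSS DKO and DSS WT points adds no support. None of the 16 was called between genotypes at baseline, where 0.0260% of all genes were called.

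**Figure D3:**
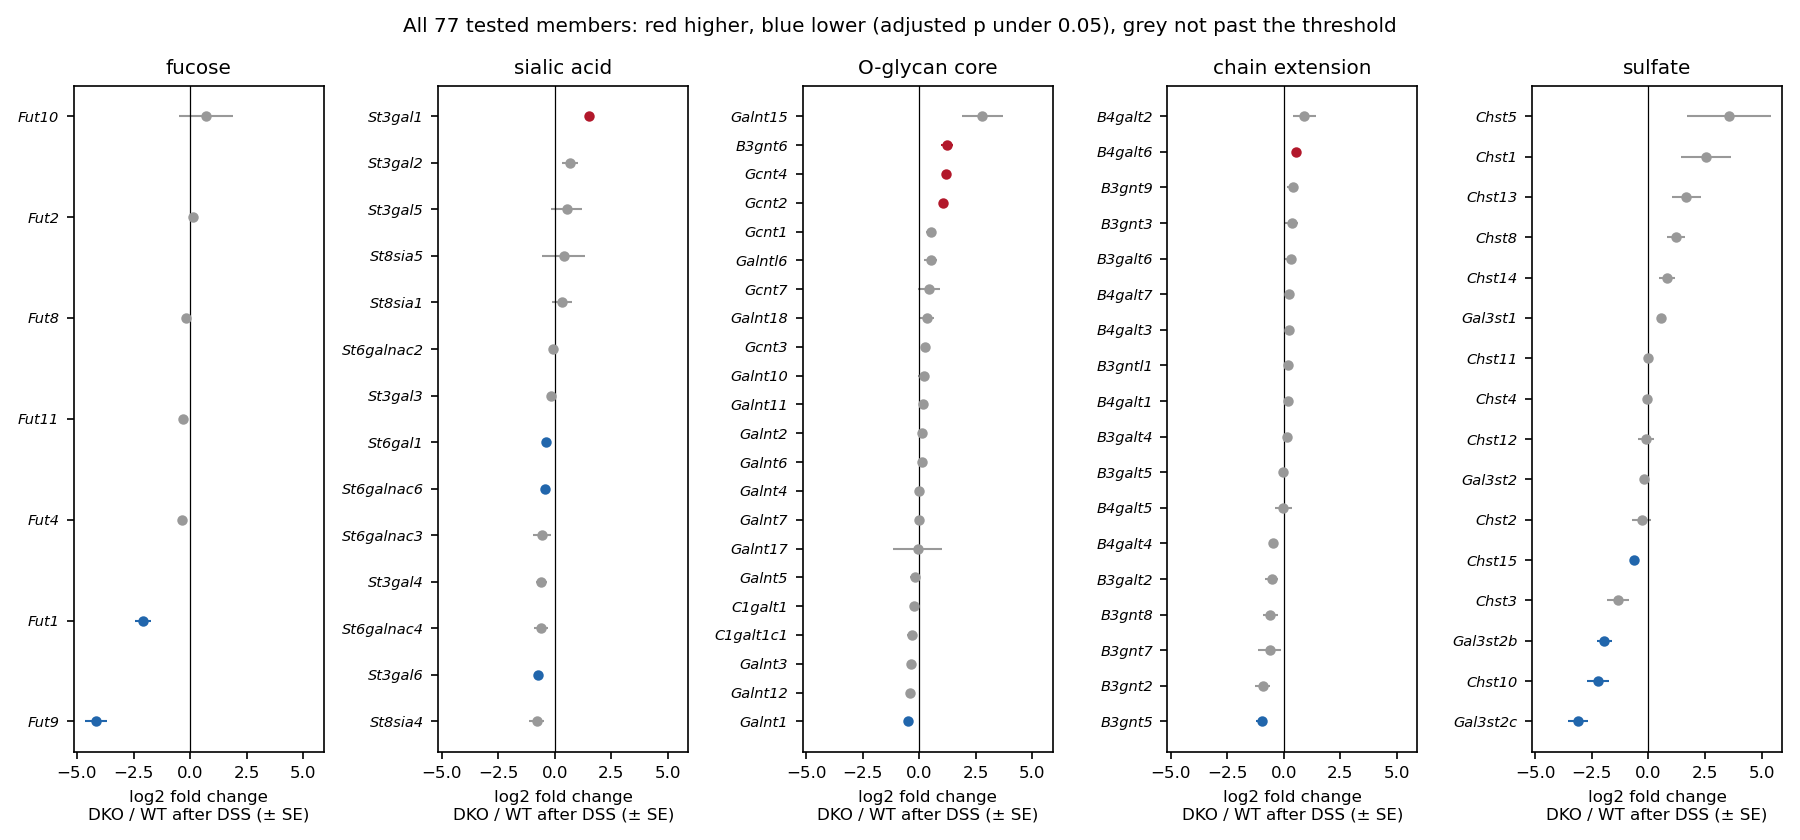
Log2 fold change of DSS DKO over DSS WT, with its SE, for the 77 members tested, by family. Red marks the 5 higher and blue the 11 lower calls; the grey members with wide bars, such as Chst5 and Galnt15, rest on few counts.

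At baseline 0 of the 77 members were called between DKO and WT by edgeR's quasi-likelihood method at that threshold, and 0 by DESeq2. At an unadjusted p under 0.05 there were 5 (6.49%), against 3.90% of all genes. Few genes were called at all: 0.0260% in either direction, 0.0104% higher and 0.0156% lower. The median log2 fold change was 0.08 over the members and 0.01 over all genes. The precision varied. St3gal6 had a 95% interval of -0.21 to 0.33 and Galnt1 of -0.12 to 0.31, while that of Fut9 was -0.81 to 0.97 and that of Gal3st2c -0.92 to 0.90. St3gal1 was -0.39 ± 0.16 and did not pass. By edgeR's test over all genes 2 were higher and 3 lower, and by DESeq2 11 and 9.

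Between DSS and baseline, more enzymes that add sialic acid or sulfate fell than rose in both genotypes, and more of those that start and branch the core rose than fell. In DKO 31 of the 77 members were called (40.3%, against 23.6% of all genes), 8 higher (10.4%, against 12.6%) and 23 lower (29.9%, against 11%). In WT 35 were called (45.5%, against 33.4%), 14 higher (18.2%, against 16.9%) and 21 lower (27.3%, against 16.5%). The median log2 fold change over the members was -0.27 in DKO and -0.15 in WT, and over all genes 0.01 in DKO and -0.01 in WT. Among 14 sialyltransferases 1 rose and 7 fell in DKO, and 2 rose and 6 fell in WT. Among 16 sulfotransferases 1 rose and 8 fell in DKO, and 1 rose and 7 fell in WT. Among 22 core enzymes 6 rose and 3 fell in DKO, and 8 rose and 4 fell in WT. Among 18 chain-extending enzymes 0 rose and 3 fell in DKO, and 3 rose and 4 fell in WT. Among 7 fucosyltransferases 0 rose and 2 fell in DKO, and 0 were called in WT by edgeR (1 of 7 by DESeq2). Those in DKO were Fut9 and Fut4. In WT the count rested on the 2 baseline libraries: it was 14 without baseline WT replicate 1 and 22 without replicate 2. Calls over all genes fell too, from 3260 higher and 3172 lower to 1439 and 1336, and to 2329 and 1928.

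These comparisons share no library, and 23 members were called in both, 74.2% of the DKO calls and 65.7% of the WT calls. Of these 7 rose in both, 15 fell in both and 1, St3gal1, moved in opposite directions. Over all genes the shares were 59.3% of the DKO calls and 41.9% of the WT calls. The signs were the same for 75.3% of the members and 74.0% of all genes.

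The sialyltransferases that fell in both were St3gal3, St3gal4 and St3gal6, which make alpha-2,3 ends, and St6galnac2 and St6galnac4, which put alpha-2,6 sialic acid on the core sugar. St3gal4 had 214, 106 and 96.4 CPM in DSS DKO and 451, 427 and 462 CPM in baseline DKO (-1.68 ± 0.25), and 218, 224 and 184 CPM in DSS WT and 418 and 401 CPM in baseline WT (-0.97 ± 0.27). St3gal6 changed by -1.78 ± 0.13 in DKO and -0.96 ± 0.14 in WT, with baseline values of 203, 233 and 253 CPM in DKO and 219 and 223 CPM in WT. St3gal3 changed by -1.03 ± 0.15 and -0.76 ± 0.17, St6galnac4 by -1.59 ± 0.31 and -1.04 ± 0.33, and St6galnac2 by -0.54 ± 0.13 and -0.45 ± 0.14. St6gal1 fell in DKO (-0.74 ± 0.10) and did not pass in WT (-0.21 ± 0.12), as did St6galnac6 (-0.61 ± 0.12 and 0.06 ± 0.14). St8sia4, which makes polysialic acid and is also found in immune cells, rose in WT (1.90 ± 0.41) at 4.64, 5.09 and 3.03 CPM in DSS WT and 1.58 and 0.702 CPM in baseline WT, as did St8sia1, a ganglioside enzyme under 1 CPM (2.20 ± 0.60). The T and intraepithelial lymphocyte markers moved with it: 6 of 7 were higher in DSS WT, with summed levels of 118 to 129.9 CPM, against 22.7 to 42.3 in baseline WT. Their part in the result was not tested. Without baseline WT replicate 1 the WT calls of St3gal4 and St6galnac4 did not pass (adjusted p up to 0.111 and 0.211 over the libraries left out), nor did those of St6galnac2 and St8sia1. St6galnac2 was also lost in WT with no filter on low counts and without DSS WT replicate 2 or 3.

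The sulfotransferases that fell in both genotypes were Gal3st1 (-0.76 ± 0.18 in DKO and -1.15 ± 0.20 in WT), Gal3st2 (-0.74 ± 0.15 and -0.51 ± 0.16), Gal3st2b (-3.48 ± 0.35 and -1.48 ± 0.34), Chst15 (-1.31 ± 0.15 and -0.79 ± 0.16) and Chst5. Gal3st2c fell in DKO (-3.13 ± 0.46), while in WT its change was -0.04 ± 0.46 with an interval of -0.95 to 0.87. Its baseline libraries spread widely, 71.1, 43.0 and 23.1 CPM in DKO and 32.1 and 60.1 CPM in WT. Chst5, a sulfotransferase for N-acetylglucosamine, was near the limit of detection, with 0, 0 and 4 counts in DSS DKO and 19, 10 and 21 in baseline DKO. In WT it had 0 counts in all 3 DSS libraries and 18 and 15 at baseline, which makes it at least 6.03-fold lower against a floor of 3 counts per library. Chst4 (-0.58 ± 0.14) and Chst10 (-1.99 ± 0.50) fell in DKO, and Chst8 (-1.45 ± 0.43) and the dermatan sulfotransferase Chst14 (-1.41 ± 0.40) in WT. Chst11, a chondroitin sulfotransferase, rose in both, with 13.8, 12.6 and 19.0 CPM in DSS DKO and 6.59, 6.56 and 6.17 CPM in baseline DKO (1.23 ± 0.21), and 15.0, 13.4 and 17.1 CPM in DSS WT and 4.16 and 6.55 CPM in baseline WT (1.50 ± 0.24). Without baseline WT replicate 1, Gal3st2, Gal3st2b and Chst8 did not pass in WT (edgeR adjusted p = 0.202 for Gal3st2 and 0.0597 for Gal3st2b). Without baseline WT replicate 2, Gal3st2, Chst8 and Chst14 did not pass there. Gal3st2 was also lost in WT with no filter, with the replicate block and without DSS WT replicate 1 or 3. Chst8 was lost too without DSS WT replicate 2 or 3, and Chst14 without DSS WT replicate 2 (0.0735). Without DSS DKO replicate 2, Chst4 (0.0550) and Chst5 did not pass in DKO, and without baseline DKO replicate 2 neither did Chst10 (0.0575).

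In the core family, the core 2 enzyme Gcnt1 rose in both genotypes, with 28.0, 36.3 and 52.1 CPM in DSS DKO and 14.3, 17.9 and 15.7 CPM in baseline DKO (1.28 ± 0.22), and 23.5, 33.6 and 25.2 CPM in DSS WT and 16.6 and 13.6 CPM in baseline WT (0.86 ± 0.25). Gcnt4 rose by 1.86 ± 0.18 in DKO and 0.72 ± 0.20 in WT, and Gcnt2 by 1.67 ± 0.19 and 0.80 ± 0.21. C1galt1 rose by 0.45 ± 0.13 and 0.64 ± 0.14, Galnt3 by 0.56 ± 0.11 and 0.95 ± 0.13, and Galnt4 by 0.54 ± 0.12 and 0.64 ± 0.14. About 8.25% of the exon length of Galnt4 lies in Poc1b on the same strand, at 31.0 to 34.5 CPM in the 4 group means. Galnt1 rose in WT (0.86 ± 0.11) and did not pass in DKO (0.26 ± 0.10). Galnt12 rose in WT (0.66 ± 0.16, and -0.06 ± 0.14 in DKO). Galnt6 (-0.41 ± 0.11 and -0.51 ± 0.12) and Galnt18 (-1.12 ± 0.33 and -1.10 ± 0.37) fell in both, while Galnt7 did not pass, with intervals of -0.26 to 0.22 in DKO and -0.28 to 0.25 in WT. Galnt17 fell to near the limit of detection, with 2, 0 and 5 counts in DSS DKO against 53, 87 and 52 in baseline DKO, and 4, 4 and 0 in DSS WT against 99 and 34 in baseline WT. B3gnt6 fell in WT (-1.14 ± 0.29), with a change of -0.08 ± 0.26 in DKO. Without baseline WT replicate 1, the WT calls of Gcnt1, Gcnt2, Gcnt4, C1galt1, Galnt4, Galnt6, Galnt12, Galnt18 and B3gnt6 did not pass. Galnt18 was also lost in WT without any 1 of 5 other libraries, and in DKO with only the libraries compared and without DSS DKO replicate 1 or 2 or baseline DKO replicate 1 or 2. The DKO call of C1galt1 was lost with only the libraries compared (0.0660) and without DSS DKO replicate 3 or baseline DKO replicate 2 or 3 (0.0530 to 0.0879), and that of Galnt6 without DSS DKO replicate 2 (0.0676).

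Of the chain-extending enzymes, B3gnt7 fell most, with 86.7, 37.8 and 17.2 CPM in DSS DKO and 235, 398 and 246 CPM in baseline DKO (-2.63 ± 0.54), and 105, 60.8 and 52.8 CPM in DSS WT and 259 and 219 CPM in baseline WT (-1.72 ± 0.56). B3gnt9, of the same enzyme family, fell too (-1.02 ± 0.24 and -1.19 ± 0.27). B3gnt5 fell in DKO (-0.86 ± 0.26), B4galt3 (-0.67 ± 0.15) and B4galt6 (-0.91 ± 0.16) fell in WT, and B4galt4 rose in WT (0.54 ± 0.19). B4galt3 overlaps Ppox on the other strand over 14.5% of its exons. Ppox averaged 20.3 CPM in DSS WT, against 32.6 in baseline WT, and fell as well (-0.68), and its part in the count of B4galt3 was not tested. The DKO call of B3gnt5 was lost without any 1 of 7 libraries (adjusted p = 0.0548 to 0.115), and the WT call of B4galt4 with DESeq2 size factors, by the DESeq2 Wald test and without any 1 of 9 libraries. That of B4galt3 was lost without baseline WT replicate 1, and that of B3gnt9 without replicate 2. Any 1 of 6 libraries left out ended the WT call of B3gnt7, and baseline WT replicate 1 those of B3gnt2 (adjusted p = 0.0998) and B3galt2 (0.0759). B3gnt2, which makes polylactosamine, rose in WT (1.62 ± 0.40), but 79.9% of its windows occur in other genes, mainly Gm28048, so its count is uncertain. B3galt2 rose in WT (1.44 ± 0.33), at 15.3, 16.5 and 20.991 CPM in DSS WT and 5.96 and 7.00 CPM in baseline WT. It overlaps Cdc73 on the other strand over 7.31% of its exons. Cdc73 averaged 83.7 CPM in DSS WT, against 44.2 in baseline WT, and rose as well (0.92), and its part in the count of B3galt2 was not tested.

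**Figure D4:**
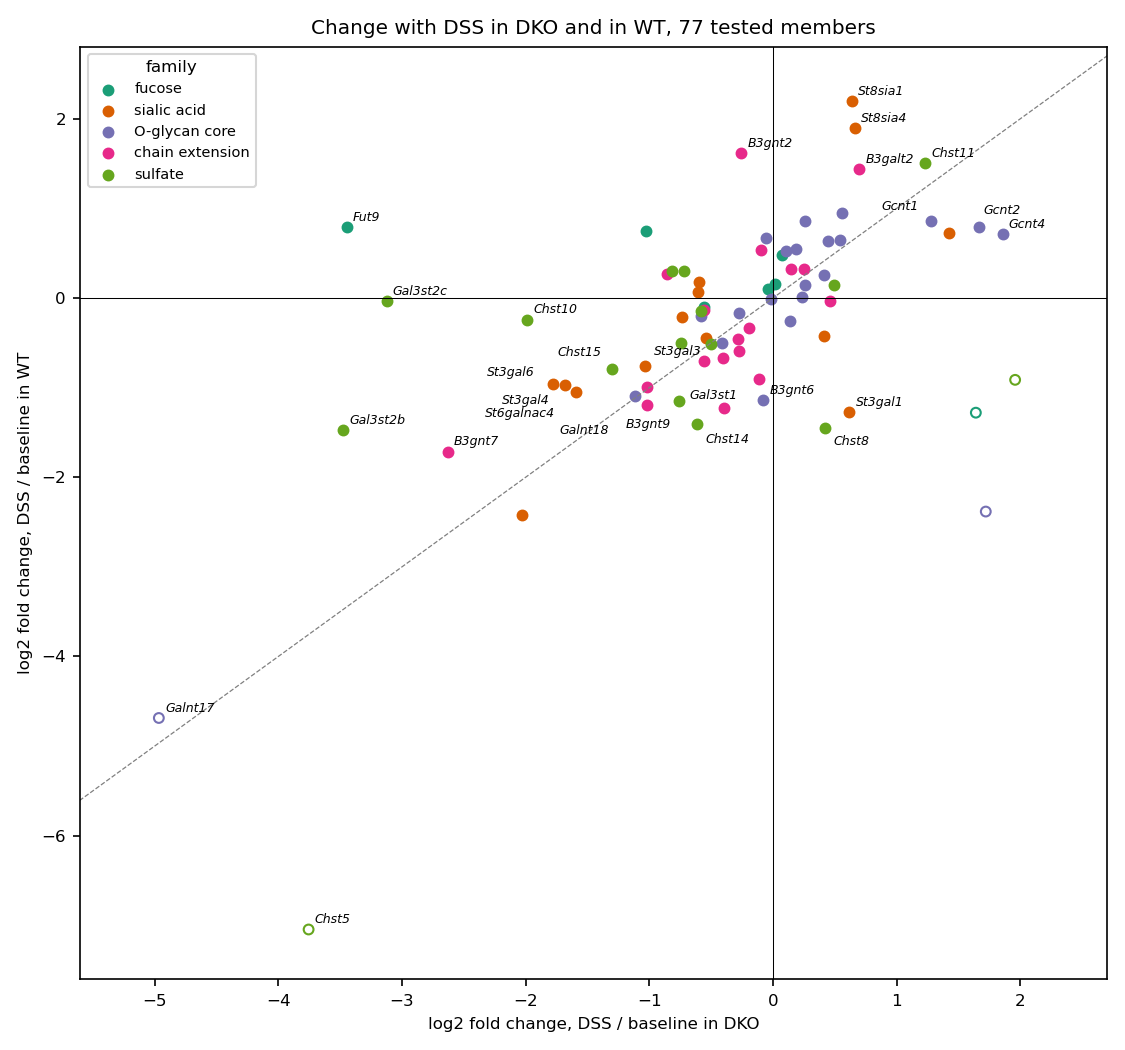
Log2 fold change of DSS over baseline in DKO (x axis) and in WT (y axis) for the 77 members, coloured by family, with open symbols where a group held 8 counts or fewer in all. Most called members lie in the lower left or upper right, with St3gal1 lower right and Fut9 far left of the dashed line of equal change.

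The difference between the DSS effects was tested as the interaction of genotype and DSS, with 2 of 77 members called (2.60%, against 1.57% of all genes), 1 higher (1.30%, against 0.773%) and 1 lower (1.30%, against 0.794%). They were St3gal1, with a difference of 1.89 ± 0.21 (adjusted p = 0.0043), and Fut9, with -4.24 ± 0.67 (adjusted p = 0.017). Fut9 changed by -3.45 ± 0.46 with DSS in DKO and 0.79 ± 0.46 in WT. The next 3 by p were St3gal6 (-0.81 ± 0.19, adjusted p = 0.0527), Gal3st2c (-3.09 ± 0.66, adjusted p = 0.0551) and Gcnt4 (1.14 ± 0.27, adjusted p = 0.0556), which did not pass. Leaving out DSS DKO replicate 1 gave 12 calls, and replicate 3 gave 7. The counts over all genes rose too, from 149 higher and 153 lower to 675 and 823 without replicate 1. Without replicate 3 they were 208 and 177. The call of Fut9 was lost without DSS DKO replicate 2 (0.0652), DSS WT replicate 3 (0.0514), baseline DKO replicate 3 (0.0536) or either baseline WT library (0.119 and 0.0806), while that of St3gal1 was kept without any 1 library.

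Levels were also summed over each family. The sialyltransferases summed to 833 to 1066 CPM in DSS DKO, 1130.0 to 1313 in DSS WT, 1678 to 1827 in baseline DKO and 1577 to 1620.0 in baseline WT. The sulfotransferases summed to 126 to 146 CPM in DSS DKO, 168 to 186 in DSS WT, 233 to 263 in baseline DKO and 199 to 237 in baseline WT. For both families the DSS libraries lay below the baseline libraries of their genotype, and DSS DKO below DSS WT. The genotype gap of the sulfotransferases lay in the Gal3st genes, above all Gal3st2c, and not across the family. Gal3st genes summed to 39.9 to 47.8 CPM in DSS DKO and 73.6 to 90.1 in DSS WT. The Chst genes overlapped, at 79.7 to 98.3 CPM in DSS DKO and 90.6 to 96.2 in DSS WT. The core enzymes summed to 2352 to 3085 CPM in DSS DKO, 2632 to 2899 in DSS WT, 2207 to 2383 in baseline DKO and 2073 to 2256 in baseline WT, overlapping between DSS and baseline in DKO but not in WT, and between the genotypes after DSS. The chain-extending enzymes summed to 1265 to 1591 CPM in DSS DKO, 1388 to 1459 in DSS WT, 1666 to 1941 in baseline DKO and 1527 to 1640.0 in baseline WT. Their DSS libraries lay below the baseline libraries of their genotype, and DSS DKO overlapped DSS WT. The fucosyltransferases summed to 487 to 619.8 CPM in DSS DKO, 575 to 577 in DSS WT, 568 to 598 in baseline DKO and 531 to 535 in baseline WT.

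Levels of cell type markers also differed between the groups, but not in step with every family. The fucosyltransferase sums overlapped between the genotypes after DSS. In WT the core sums were higher after DSS, while the goblet cell sums were lower. For scale, 5.26% of all genes were called higher and 5.98% lower in DSS DKO than in DSS WT. With DSS, 23.6% of all genes were called in DKO and 33.4% in WT, in either direction. Goblet cells secrete the mucus. Of their 11 markers 3 were lower in DSS DKO than in DSS WT and none higher, 7 were lower with DSS in DKO, and 3 lower and 1 higher with DSS in WT, and their summed level was 4202 to 4296 CPM in DSS DKO, 6956 to 8542 in DSS WT, 34937 to 40267 in baseline DKO and 40623 to 40870.0 in baseline WT. Of 6 deep crypt secretory markers 3 were lower, with sums of 236 to 279, 769 to 965, 3988 to 8012 and 5309.5 to 5976 CPM in the same order of groups. Of 7 crypt stem and dividing cell markers 3 were lower, at 165 to 399 CPM in DSS DKO and 420.2 to 561 in DSS WT. All 7 lymphocyte markers were lower, at 31.0 to 61.8 CPM in DSS DKO and 118 to 129.9 in DSS WT, and 5 of 7 neutrophil markers were higher, at 157 to 221 CPM in DSS DKO cells, against 49.7 to 57.1 in DSS WT cells. Among 8 absorptive colonocyte markers 3 were higher and 1 lower, at 5176 to 8112 CPM in DSS DKO cells, against 7098 to 7282 in DSS WT cells. Tuft cell (3 of 5) and mast cell (2 of 5) markers were lower, enteroendocrine (2 of 6) markers were higher, and none of the B and plasma cell, macrophage and dendritic cell, endothelium or smooth muscle markers were called by edgeR. Of the 6 fibroblast markers Col3a1, Pdgfra and Dcn were higher, while Col1a1 (-0.43), Col1a2 (-0.46) and Lum (-0.22) did not pass, and the sums overlapped at 217 to 365 CPM in DSS DKO and 283 to 332 in DSS WT. No marker of these lists was at 0 in every library. Their part in the members' results was not tested.

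**Figure D5:**
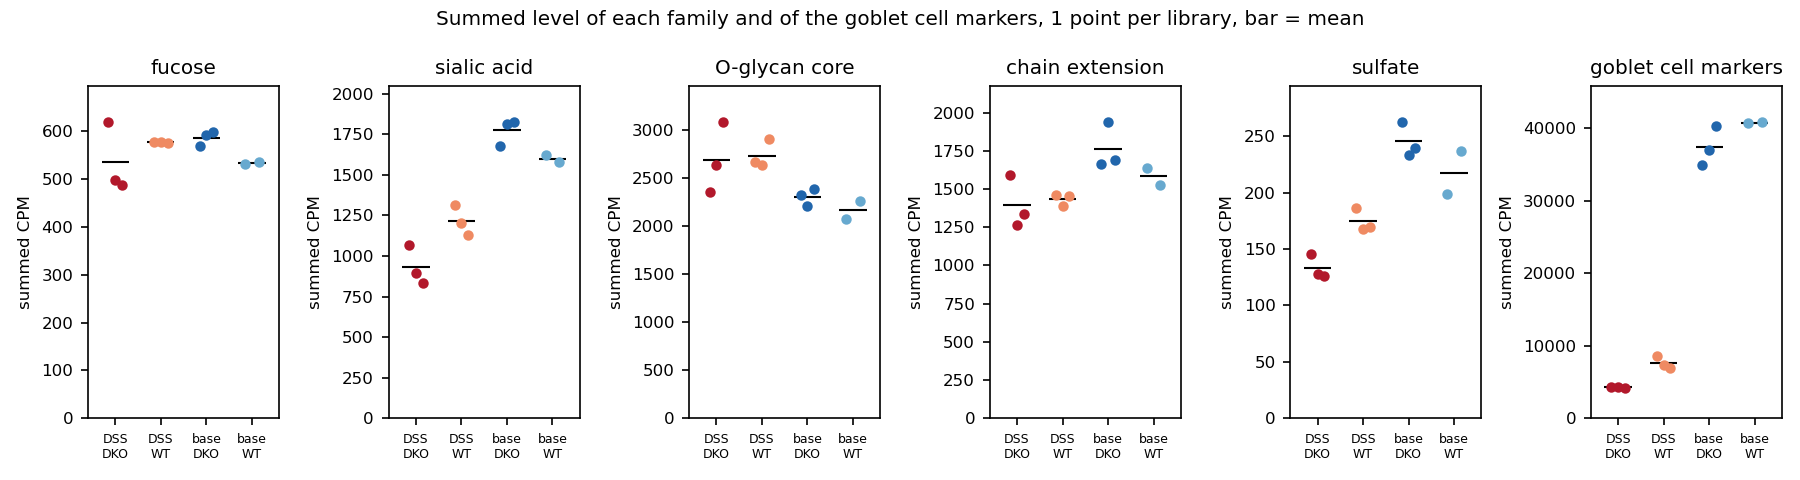
Summed CPM of each family and of the 11 goblet cell markers, with 1 point per library, a bar at each mean and axes starting at 0. Sialic acid and sulfate families are lowest in DSS DKO, at 833 to 1066 and 126 to 146 CPM. In the sulfate family the gap to DSS WT lies in the Gal3st genes, while the sums of the Chst genes overlap. The sum of the goblet cell markers is far lower in all DSS than in all baseline libraries. Of the 11 markers, 7 were called lower with DSS in DKO, and 3 lower and 1 higher in WT.

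The proteins and sugars that these enzymes work with were read from lists of textbook members. Of 11 mucus genes tested, 1 was higher in DSS DKO than in DSS WT and none lower. It was Muc3a, a membrane mucin, at 65.0 ± 3.72 CPM in DSS DKO and 39.7 ± 3.92 CPM in DSS WT (0.71 ± 0.14, adjusted p = 0.00926). Muc2, the main secreted mucin and carrier of these glycans, was at 1651 ± 236 CPM in DSS DKO, at 1685 ± 263 in DSS WT, 9784 ± 762 in baseline DKO and 12649.5 ± 4713 in baseline WT (SD, n = 3, 3, 3 and 2), -0.03 ± 0.20 between the first pair. Between DSS and baseline 9 of the 11 fell in DKO and 8 in WT. None of 6 genes of sialic acid supply and none of 9 of sulfate supply were called between DSS DKO and DSS WT by edgeR. Of 10 of fucose supply 1 rose, Pmm1 (0.84 ± 0.19), a phosphomannomutase. Of 17 genes of UDP-sugar supply, 3 rose, Uap1l1 (0.88 ± 0.12), Slc35d1 (0.78 ± 0.14) and the galactokinase Galk1 (0.67 ± 0.19), and 1 fell, the UDP-N-acetylglucosamine carrier Slc35a3 (-0.54 ± 0.11).

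Of 33 other glycosyltransferases 4 fell and none rose: the blood group enzyme Abo (-0.83 ± 0.16), the globoside enzyme A4galt (-1.12 ± 0.22), B3galnt2 (-0.55 ± 0.14) and the folding sensor Uggt1 (-0.38 ± 0.10). Of 17 genes listed under Golgi trafficking and retention of glycosyltransferases 4 fell and none rose: Golph3l (-0.50 ± 0.10), Cog4 (-0.39 ± 0.09), Cog5 (-0.55 ± 0.12) and Slc10a7 (-0.44 ± 0.10). Among genes that take sugars off, the lysosomal sialidase Neu1 rose (1.05 ± 0.11) to 219.8 ± 18.1 CPM in DSS DKO, against 106 ± 12.5 CPM in DSS WT, while the membrane sialidase Neu3 fell (-1.40 ± 0.30). Of 17 lectins 1 fell, Lgals12 (-0.95 ± 0.13). Of 11 genes listed for interleukin-22 and STAT3, a signal that induces Fut2 in the mouse gut, 7 rose and none fell. Among the 7 were Lcn2 (2.69 ± 0.32), Reg3g (1.62 ± 0.32), S100a8 (1.66 ± 0.30) and Il18 (0.80 ± 0.12). The list also holds the receptor genes Il22ra1 and Il10rb and Stat3 itself, which are parts of the signal. Fut2, which is on the list, did not pass. S100a8 and S100a9, both among the 7, are also on the neutrophil marker list. For reading these counts, 5.26% of all genes were higher and 5.98% lower.

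Members with and without a miR-181 seed match were set side by side. In the genotype comparison after DSS, 3 of 25 tested members with a match rose and 3 fell, with a median log2 fold change of -0.07, and 2 of 52 without one rose and 8 fell, with a median of 0.13. The 4 members printed above that moved were split, with Gcnt2 and Gcnt4 higher and Fut9 and Gal3st2c lower. C1galt1, with 2 matches of the longest form, had 309, 325 and 390.1 CPM in DSS DKO and 365, 395 and 429 CPM in DSS WT (-0.22 ± 0.13). Among other genes, 5.64% of 3282 with a match and 6.17% of 10661 without one rose, and 8.87% and 6.85% fell. In the DSS comparison of WT, 11 of the 25 members with a match rose and 3 fell (44.0% higher), with a median of 0.52. Of the 52 without one 3 rose and 18 fell (5.77% higher), with a median of -0.51. Of the 11 that rose 7 were core enzymes. Without baseline WT replicate 1, only 4 of all the members were called higher in WT and 10 lower. In DKO, 6 with a match rose and 5 fell, and 2 without one rose and 18 fell. Among other genes 26.1% with a match and 19.3% without one rose with DSS in WT, and 14.7% and 18.4% fell. In DKO 21.7% with a match and 13.3% without one rose, and 10.2% and 12.5% fell. The tested members with a match had a median UTR of 3096 bases, against 1353 without one, and other genes 2311 against 914. The part of UTR length in these shares was not tested.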

How the data were processed

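RNA of 11 libraries of Percoll-enriched colonic epithelial cells was sequenced. The authors deposited 1 table of raw counts per gene. STAR and the mouse build mm10 are named in the submitters' processing notes; for the counting tool, the annotation and strandedness, nothing is stated: they were not given in the sources used here. Groups follow the labels. The members and all gene lists were chosen with earlier results of these data known. Genes were filtered with filterByExpr at a minimum count of 10, scaled by TMM and fitted over all libraries with edgeR 4.0.16 (limma 3.58.1, R 4.3.3) by the robust quasi-likelihood test, with Benjamini-Hochberg adjustment over all genes kept and a threshold of 0.05. SE was taken as the log2 fold change over the root of F, and intervals are 95%. CPM were scaled by TMM, and lengths are GENCODE M21 exons. The test was checked on simulated counts. Alternatives were DESeq2 1.42.0 (size factors, Wald test), no filter, only the libraries compared, a replicate block, no ribosomal RNA genes, and each library left out. Members were named if called between genotypes or by the interaction, if among the 8 highest or lowest called DSS changes or the 3 highest levels of a family, or if known for colonic mucins; a few others, named after their values were seen, complete the counts. Library totals were 41631951 to 52761900 counts, and floors of 3 counts per library cover counting error only. Replicates differed by more than sampling noise (chi-square per degree of freedom 14.4 to 788). The values of 233, 281 and 788 were those of the baseline DKO pairs. These libraries held 23.0%, 8.46% and 0.315% of their counts in an 18S ribosomal RNA gene, which was included, and its part was not tested. Some results of the list of genes that remove sugars are not reported here.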

Additional observations from a re-analysis of the deposited data

Results flagged for a closer look

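St3gal1 and Fut9 were noted because their DSS effects differed between the genotypes by the test of the interaction. For St3gal1 the effect of DSS was 1.89 higher on the log2 scale in DKO than in WT, being 0.62 in DKO and -1.27 in WT. For Fut9 the difference was -4.24, with a DSS effect of -3.45 in DKO and of 0.79 in WT, and the WT effect did not pass. The treated and untreated libraries also differ in the sex pattern of Xist and Ddx3y, in DKO and WT alike.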

How the results depend on the processing

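No direction of a called result was reversed under any alternative run. At baseline 0 members were called in all 17 alternatives. Between DSS DKO and DSS WT the main count was 16; it was 10 with only the libraries compared, 24 with no filter, 20 with the DESeq2 Wald test, and 9 to 21 with 1 library left out. For DSS in DKO the count was 31, and 26 to 39 with 1 library left out; for DSS in WT it was 35, and 14 to 41. For the interaction it was 2, against 15 with no filter, 14 with the DESeq2 Wald test and 1 to 12 with 1 library left out. Interaction calls over all genes rose too, from 149 higher and 153 lower to 764 and 705 with no filter. With the DESeq2 Wald test they were 614 and 761. Over all genes 1013 were higher and 1152 lower in DSS DKO, against 536 and 836 with only the libraries compared and 1807 and 1425 with no filter. The cause of these shifts was not tested. Calls kept in every alternative numbered 8 of 16 between DSS DKO and DSS WT, 24 of 31 for DSS in DKO, 12 of 35 for DSS in WT and 1 of 2 for the interaction. No scaling moved the median of all genes by more than 0.037 (log2). With the replicate number as a block, 18 members were called between DSS DKO and DSS WT, 15 of them shared, and 4 by the interaction. Whether the numbers pair the samples cannot be told from these libraries. Same-numbered deviations correlated at 0.30, 0.019 and 0.20 after DSS, while DSS WT replicate 2 went best with DSS DKO replicate 3 (0.16). At baseline they correlated at 0.14 and -0.07. With 2 baseline WT libraries the deviations mirror each other, so the baseline values hold no information on pairing. Members under about 20 counts, such as Chst5, are limited by depth, and baseline WT by its 2 libraries.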
